A study of Homo sapiens with 12 samples.

Results

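Glycolysis splits glucose into pyruvate through a chain of cytosolic enzymes, and many tumours run it fast even when oxygen is at hand. Hexokinase and phosphofructokinase carry the early, committing steps, aldolase to enolase carry the middle ones, and pyruvate kinase makes ATP at the end. N4-acetylcytidine (ac4C) is a modified cytidine found in tRNA, rRNA and mRNA, and NAT10 is the acetyltransferase that writes it.

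The genes described here are the 10 glycolytic enzyme genes HK1, HK2, GPI, PFKL, PFKP, ALDOA, GAPDH, PGK1, ENO1 and PKM, out of 15843 protein-coding genes whose position and strand were known (20056 protein-coding genes in the whole GRCh38.p14 table). They were chosen by name, with earlier results of these data known. A peak was given to a gene when its midpoint lay inside the gene's span on the same strand. By that rule 9898 of the 15843 genes, and 7 of the 10 glycolytic genes, held a peak somewhere in the 6 libraries. HK1, HK2, GPI, PFKL, PFKP and PKM held peaks in all 6 libraries, as did 4906 genes in all (31.0%). GAPDH, PGK1 and ENO1 held none in any library, as did 37.5% of all genes. ALDOA held 1 peak in 1 library.

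The peaks come from acetylated RNA immunoprecipitation sequencing (acRIP-seq), in which an antibody against ac4C pulls down fragmented RNA, in SW620 cells, an established line from a human colorectal cancer. Control cells carried a lentiviral control shRNA (shControl) and knockdown cells an shRNA against NAT10 (shNAT10). The authors describe puromycin selection of their stable shRNA lines, but not whether the sequenced control and knockdown cultures were grown alike. The labels do not say which hairpin against NAT10 was used, nor whether the 3 libraries of a group came from separate cultures, so the tests measure only the spread between these libraries.

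In all, 18241, 22619 and 20063 peaks were listed for control replicates 1 to 3, and 28752, 17877 and 19047 for knockdown replicates 1 to 3, with median widths of 189 to 228 bases. The lists give no read counts, so the depth is unknown. Each peak has a score from 50 upward, of a kind that no source used here defines, and 7.61% to 13.7% of the peaks of a library share the value 3100. It was used only as a percentile within its own library, where 100 is the highest-scored peak and tied peaks share a mean rank. Of markers of colorectal epithelium, 5 of 10 held a peak in all 6 libraries and 7 of 10 in any (sums of 11 to 15 peaks in control and 11 to 20 in knockdown libraries, with CDX1, KRT18 and KRT20 at 0). The strand of 16 of the 21 markers was not known here, and their peaks were counted on either strand. None of 4 leukocyte, 4 fibroblast and 3 endothelial markers held a peak in all 6, and 2, 1 and 2 of them held one in any. NAT10 itself held 1, 0 and 2 peaks in control libraries and 2, 0 and 1 after knockdown, which is no measure of how far its mRNA or protein fell. A peak in these lists depends on the amount of an mRNA as well as on its acetylation, and without expression values the pair cannot be told apart.

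Being absent from a list is not the same as having no called peak. Peaks carry running numbers that ascend along each chromosome with no neighbour out of order, up to 159043, 133021 and 109512 in the control and 135963, 98727 and 98616 in the knockdown libraries. The lists therefore hold 11.5% to 21.1% of the numbers given, and the skipped numbers are read here as calls that the mRNA lists leave out. For the glycolytic genes these gaps are reported beside each absence.

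Where a region of a glycolytic gene met a RefSeq window around a transcript start (GRCh38.p14, 250 bases before to 50 after), its sequence could be read in part. That was so for 4 genes. The region of ALDOA begins 1394 bases inside the gene span, not at its start, and also lies in the span of another gene. The first region of PFKP lies at the start of its gene, but no window covers it, so its sequence is not shown. The NAT10 literature describes acetylated cytidines in repeats of a C followed by any 2 bases, so the 30 bases shown per gene are those around the longest unbroken run of such triplets, and the capitals mark that run. They are written 5′ to 3′ on the strand of the gene. The HK2 stretch lies wholly before the start of the gene span. It is inside the merged region but outside the peak of knockdown replicate 1, which begins only at base 74834023.
HK2, first region, plus strand, chr2:74833981-74834010: CGGCCGCGCCCGCGAgccgtgagcgatgat
PFKL, first region, plus strand, chr21:44300051-44300080: gCGACGCggcgcaggcggcgggagtgcgag
ALDOA, only region, plus strand, chr16:30065757-30065786: cctgccCGCCTCCTGCGCCGCCCCttccga
PKM, first region, minus strand, chr15:72231330-72231359: cgcgttCCGCCGCCGCCGCCGCGCttcctc
The runs are 5, 2, 6 and 6 triplets long in HK2, PFKL, ALDOA and PKM. A window covered 196, 52, 137 and 246 bases of these merged regions. Of those bases, 37.2%, 32.7%, 36.5% and 33.7% were C, against 28.4% to 28.8% in the same stretch of all 35116 windows. Runs of 4 triplets, searched as CNNCNNCNNCNN, overlaps allowed, occurred in the covered stretch of HK2, ALDOA and PKM and not in that of PFKL. Such runs were common in stretches of the same position and length: on the strand of the gene they occurred in 65.3%, 55.3% and 70.7% of all windows for the stretches of HK2, ALDOA and PKM and in 26.7% for that of PFKL. On either strand the shares were 85.0%, 78.9%, 88.0% and 51.3% for HK2, ALDOA, PKM and PFKL. A run of triplets is a description of the letters and marks no acetylated base.

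The first question was whether the glycolytic mRNAs held more or fewer ac4C peaks after NAT10 knockdown. Summed over the 10 genes, there were 21, 27 and 37 listed peaks in control replicates 1 to 3 and 41, 32 and 34 in knockdown replicates 1 to 3, an order kept for all values below. The sums overlapped, since control replicate 3 lay above both knockdown replicates 2 and 3. The control mean was 28.3 ± 8.08 and the knockdown mean 35.7 ± 4.73 (both SD, n = 3), a difference of 7.33 peaks that lay within the spread of the control libraries. Per 10000 listed peaks the sums were 11.5, 11.9 and 18.4 in control against 14.3, 17.9 and 17.9 in knockdown. Without PFKP, which holds the most peaks, they were 15, 19 and 21 against 28, 18 and 20. Without control replicate 1 the difference was 3.67 peaks, without control replicate 3 it was 11.7 and without knockdown replicate 1 it was 4.67. Among the top-scored 50% of peaks it was 2, and with the 17877 highest-scored peaks of each list it was 4. The excess of knockdown replicate 1 over its own group came with the longest list of the series.

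**Figure D1:**
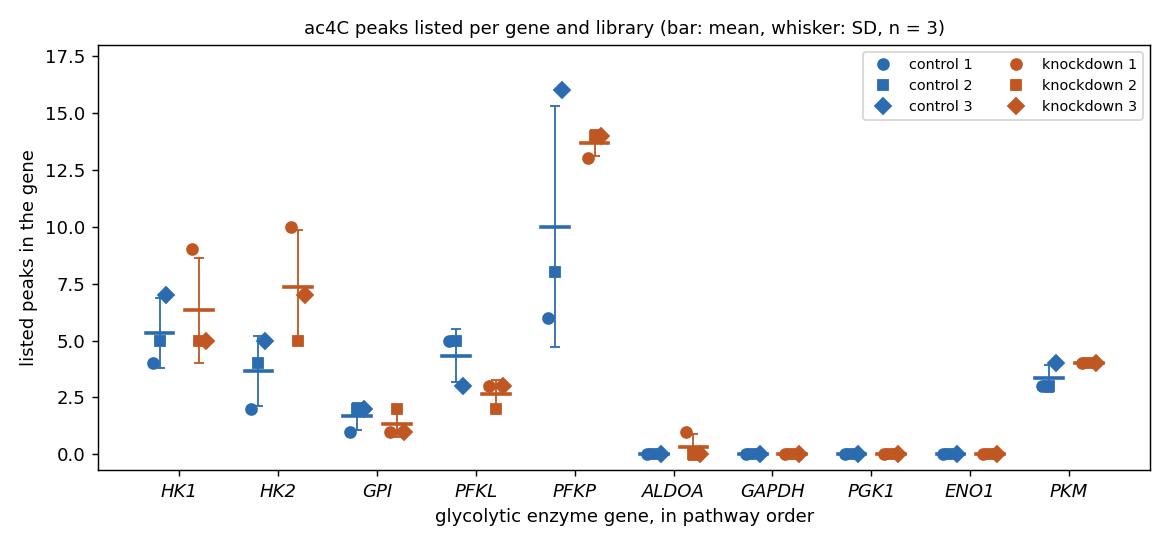
Number of listed ac4C peaks (vertical axis) in each of the 10 glycolytic genes (horizontal axis, in pathway order), with 1 symbol per library, blue for the 3 control and orange for the 3 knockdown libraries. Bars are means and whiskers SD (n = 3). PFKP ranges from 6 to 16 peaks and its control values span the knockdown values of 13 to 14, while GAPDH, PGK1 and ENO1 sit at 0.

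Gene by gene, 0 of the 10 had peak numbers that were all higher, or all lower, in the knockdown than in the control libraries. Over the 9898 genes with a peak, 1.58% were higher in all knockdown libraries and 0.697% higher in all control libraries. The 3 members without a peak could not separate. At such shares a count of 0 among the 7 others is near the background and says little about them. Of the 7 members with a peak, 5 had a higher knockdown mean and 2 a lower one, with a median difference of 0.667 peaks, against a median of 0 over all genes with a peak (44.6% with a higher and 31.6% with a lower mean). A two-sided exact permutation test with 3 libraries against 3 cannot go below p = 0.1, so no gene could pass the usual threshold even unadjusted, and the adjusted p over all 9898 genes was 1 for each gene.

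The hexokinases trap glucose in the cell as glucose 6-phosphate. HK1, the form expressed in most tissues (chr10:69270000-69401882, plus strand), held 4, 5 and 7 peaks in control libraries against 9, 5 and 5 after knockdown. Only knockdown replicate 1 lay above the control range (5.33 ± 1.53 against 6.33 ± 2.31, SD, n = 3; two-sided exact permutation test, p = 0.7), and without it the difference changed from 1 to -0.333 peaks. HK2, the inducible form that many tumours express strongly (chr2:74834127-74893359, plus strand), held 2, 4 and 5 peaks in control and 10, 5 and 7 in the knockdown libraries. The groups met at 5 peaks (3.67 ± 1.53 against 7.33 ± 2.52, SD, n = 3; two-sided exact permutation test, p = 0.2). The HK2 number depended on how the lists were handled. Per 10000 listed peaks it held 1.10, 1.77 and 2.49 peaks in control against 3.48, 2.80 and 3.68 in knockdown, which do not overlap, as was so in this direction for 3.48% of all genes. Among the top-scored 50% of peaks they were 0, 0 and 3 against 1, 0 and 1, and the direction turned. With the lists cut to the same length, the 17877 highest-scored peaks each, they were 2, 2 and 5 against 1, 5 and 7.

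GPI and the phosphofructokinases carry sugar phosphate on to fructose 1,6-bisphosphate. GPI, glucose 6-phosphate isomerase (chr19:34359718-34402413, plus strand), held 1, 2 and 2 peaks in control libraries against 1, 2 and 1 after knockdown, which overlap (two-sided exact permutation test, p = 1). PFKL, the liver-type phosphofructokinase (chr21:44300053-44327373, plus strand), was the only gene with more than 2 peaks in a library and a lower knockdown mean. It held 5, 5 and 3 peaks in control and 3, 2 and 3 in the knockdown libraries, and the groups met at 3 (4.33 ± 1.15 against 2.67 ± 0.577, SD, n = 3; two-sided exact permutation test, p = 0.3).

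PFKP, the platelet-type phosphofructokinase (chr10:3067548-3136805, plus strand), held 6, 8 and 16 peaks in control libraries against 13, 14 and 14 after knockdown. Control replicate 3 had the most of all 6, and control replicates 1 and 2 the fewest, so the control libraries lay on both sides of the knockdown libraries (10 ± 5.29 against 13.7 ± 0.577, SD, n = 3; two-sided exact permutation test, p = 0.4). Its 71 peaks over the 6 libraries ranked 55th among genes with a peak, above 99.4% of them (median, 7). Per 10 kb of span it held 1.44 peaks in control and 1.97 in knockdown libraries, against 1.59 and 0.976 for PFKL, 1.02 and 1.23 for PKM, 0.619 and 1.24 for HK2, 0.404 and 0.480 for HK1, and 0.390 and 0.312 for GPI. The median over genes with a peak, taken over all 6 libraries, was 0.365 per 10 kb. The genes whose numbers over the 6 libraries lay nearest to those of PFKP, by Euclidean distance, were RAPGEF1 (distance 4.58), with 9, 10 and 14 peaks in control and 15, 14 and 14 in the knockdown libraries, AKNA (4.90), with 8, 9 and 15 against 12, 13 and 10, and EHMT1 (5.29), with 7, 12 and 15 against 14, 11 and 14.

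PKM, the pyruvate kinase of most dividing cells (chr15:72199029-72231591, minus strand), held 3, 3 and 4 peaks in control and 4 in each knockdown library. The groups met at 4 (3.33 ± 0.577 against 4 ± 0, SD, n = 3; two-sided exact permutation test, p = 0.4). Among the top-scored 50% of peaks the values were 1, 3 and 3 against 4, 4 and 4, which do not overlap, as was so in this direction for 1.45% of the 6850 genes with a peak left.

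One library decided several of these comparisons. Without control replicate 3, peak numbers no longer overlapped for 4 of the 10 genes: HK2, PFKP and PKM were higher in the knockdown libraries and PFKL higher in the 2 remaining control libraries. With that library left out, 3.87% of all genes were higher in knockdown and 2.49% higher in control without overlap. Leaving out knockdown replicate 2 separated HK2 alone, higher in knockdown, as were 4.35% of all genes, and no other library, left out by itself, separated any of the 10.

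The genes of the middle steps were nearly or wholly absent from the lists. ALDOA, which splits fructose 1,6-bisphosphate (chr16:30064279-30070420, plus strand), held 0 peaks in every library but knockdown replicate 1, where 1 peak of 255 bases (chr16:30065673-30065927) had a score of 3100. That peak also lies in the span of LOC112694756, so its gene is uncertain, and with peaks of 1 gene only ALDOA held none. GAPDH (chr12:6534517-6538371, plus strand) and PGK1 (chrX:78104248-78129295, plus strand), the dehydrogenase and the kinase of the middle of the pathway, held none. ENO1, enolase (chr1:8861000-8878686, minus strand), held none by midpoint, although 1 peak each of control replicate 2 and knockdown replicate 1 reached 107 bases into its 5′ end, at percentiles of 44.2 and 12.7. A gene with no peak was common among short spans, 65.8% of the 2339 genes of at most 5000 bases, and was found for 33.3% of genes of 10 to 30 kb and 26.4% of genes of 30 to 150 kb. GAPDH spans 3855 bases and ALDOA 6142.

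None of these 4 genes can be said to lack called peaks. Between the listed peaks on either side of GAPDH, 4 to 8 numbers per library were skipped, in gaps of 39.2 to 127 kb. Around PGK1 3 to 30 numbers were skipped (gaps of 168 to 2838 kb), around ENO1 2 to 12 (286 to 311 kb), and around ALDOA, in the 5 libraries where it held no peak, 5 to 9 (20.7 to 61.2 kb). The skipped calls may lie in other genes of those gaps or on the other strand, and their positions are not analysed here.

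The next question was where in each gene the peaks lay. Merging peaks that overlapped by at least 1 base on the same strand gave 59 regions for the 192 peaks of the glycolytic genes, out of 41755 regions in the series. Of the 59, 14 (23.7%) were listed in all 6 libraries and 16 (27.1%) in 1 library, against 22.0% and 38.7% of all regions. Peaks in the glycolytic genes were narrow, with a median width of 153 bases against 210 over all peaks. Of the 43 of their regions listed in 2 or more libraries, 37 (86.0%) had the same start and the same end in each, as had 60.6% of 25614 regions overall. Some widths recurred between genes of 1 family. Regions of 184 and 305 bases were found in both HK1 and HK2, and of 74 and 78 bases in both PFKL and PFKP. Whether the shared widths and ends follow annotated exon ends was not tested. Whether a region lies in an exon, an intron or an untranslated part is not analysed here.

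**Figure D2:**
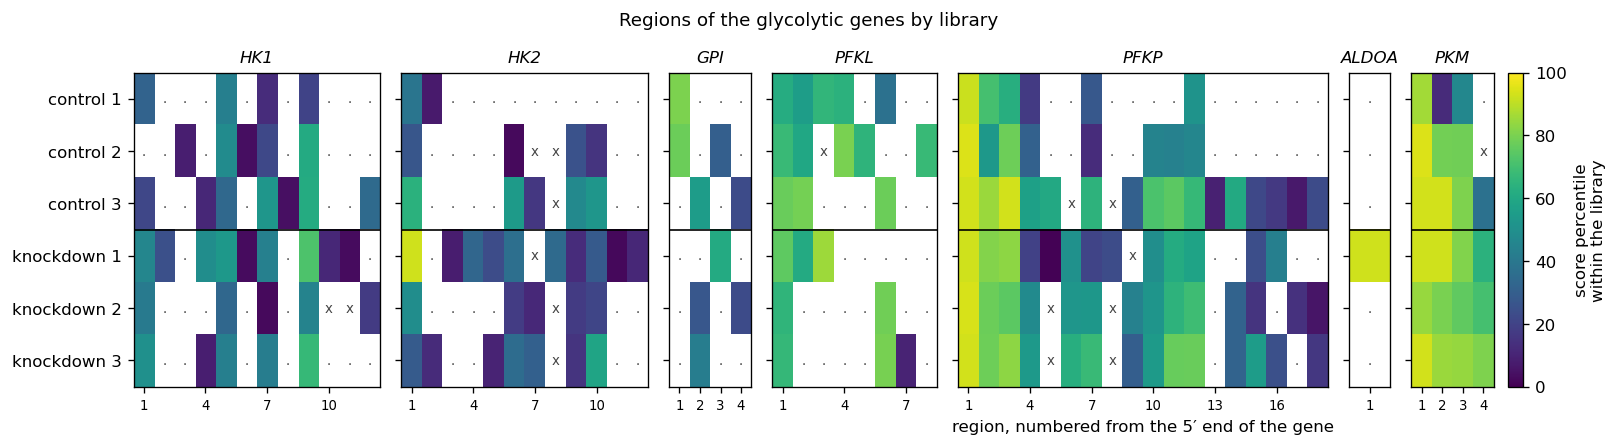
Regions of the 7 glycolytic genes with a listed peak (columns, numbered from the 5′ end of the gene) in each library (rows, 3 control above the line and 3 knockdown below), coloured by score percentile within the library. White cells are not listed there. A dot marks an absence with at least 1 skipped peak number between the listed peaks on either side, and a cross an absence with none. Of 162 absences, 17 carry a cross.

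Most of the peaks missing from a library could not be told from unlisted calls. In 145 of 162 absences at least 1 number was skipped between the neighbouring listed peaks, and in 17 (10.5%) none was, against 5.70% of the 124922 absences over all regions. The gaps differed in length, so these shares are a description. Within PFKP, 20 to 23 numbers were skipped in the control libraries between the first and the last listed peak and 16 to 22 in the knockdown libraries, beside 6 to 16 and 13 to 14 listed. In PKM 0 to 3 were skipped in each library.

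**Figure D3:**
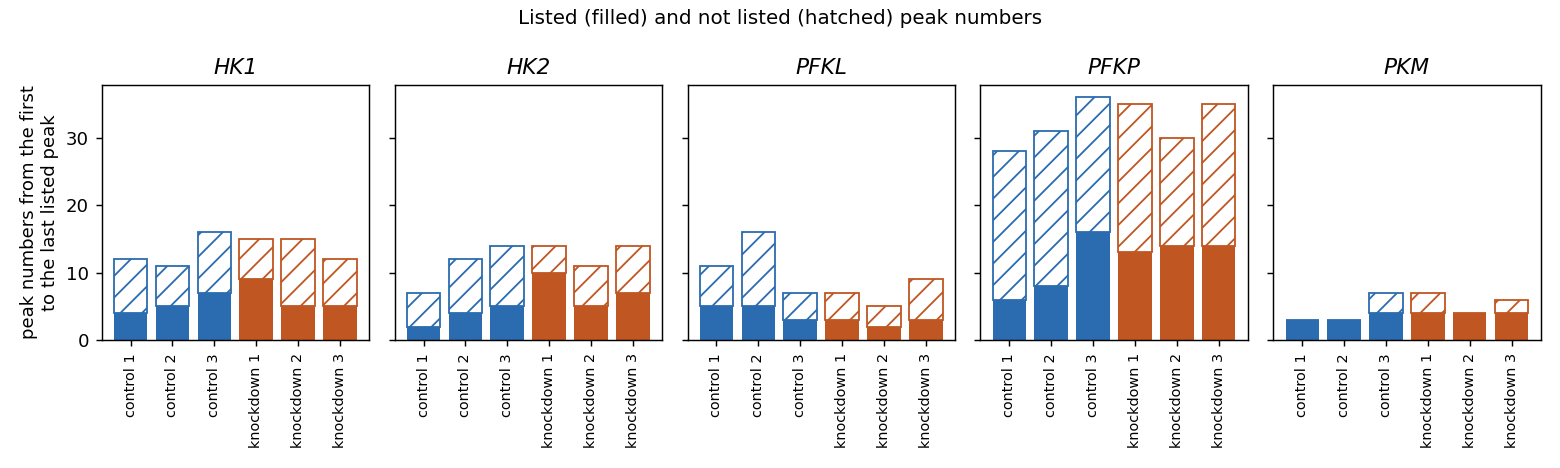
Peak numbers from the first to the last listed peak of 5 glycolytic genes in each library, split into listed peaks (filled bars) and numbers not in the list (hatched bars stacked on them), blue for control and orange for knockdown libraries. The vertical axis counts peak numbers from 0. In PFKP the numbers not listed, 16 to 23 per library, exceed the listed peaks in every library.

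In 4 genes a region listed in all 6 libraries lay at or near the 5′ end. The first region of PFKP ran from -28 to 159 bases relative to the start of the gene span and had the same start and end in all 6 libraries. Its percentiles were 92.0, 94.8 and 93.2 in control libraries against 92.7, 94.0 and 93.2 after knockdown, the highest of the gene in every library, tied with its region at 31.7 kb in control replicate 3. In 5 of the 6 libraries this peak has the shared score of 3100 (3003.58 in control replicate 1), so its percentile follows the share of tied peaks in each list, and a change above that ceiling could not be seen. The first region of PKM began 205 bases inside the span, had the same start and end in all 6 libraries, and stood at 86.0, 94.8 and 93.2 in control and 92.7, 84.6 and 93.2 in the knockdown libraries, where 4 of the 6 values are at the score of 3100. The first region of PFKL, from -2 to 137 bases, stood at 61.9, 67.8 and 77.0 against 75.2, 65.5 and 66.6. The first region of HK2, from -146 to 516 bases, varied the most of these 4, at 39.0, 26.9 and 63.9 in control against 92.7, 48.9 and 28.6 in knockdown libraries. In none of the 4 did the groups separate. HK1 held no listed peak in the first 73.8 kb of its 131883-base span. Its region with the highest lowest percentile, 99.4 kb from the start, stood at 43.2, 48.3 and 33.6 against 53.4, 33.5 and 43.1.

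The other regions listed in all 6 libraries were 2 of HK1, 5 of PFKP and 2 of PKM. Along PFKP the percentile was lower at 33.8 kb (17.1 to 56.8 over the 6 libraries) and 39.7 kb (12.7 to 67.9) than at 14.8 kb (53.2 to 84.9), 31.7 kb (62.8 to 93.2) and 51.2 kb (46.0 to 77.1). These ranges overlap, except that the range at 33.8 kb lies below that at 31.7 kb. The second region of PKM, 12.5 kb from the start, stood at 12.5, 78.6 and 93.2 in control libraries and 92.7, 80.1 and 85.0 after knockdown, so that control replicate 1 alone was low. Its difference of 24.5 percentiles was the largest of the 14 shared regions and lay within the control spread (61.4 ± 43.0 against 85.9 ± 6.38, SD, n = 3; two-sided exact permutation test, p = 0.5).

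**Figure D4:**
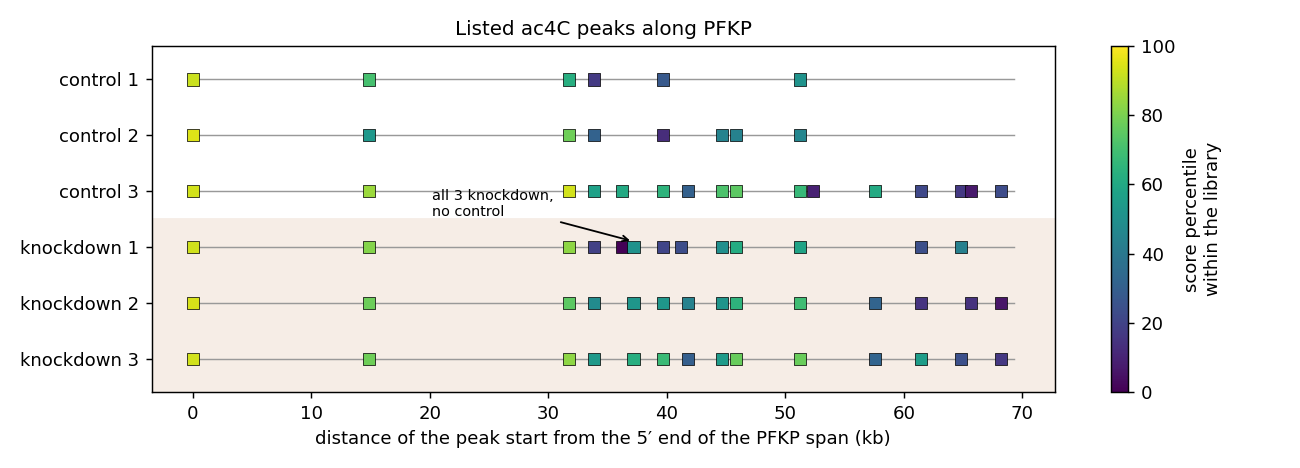
Position of each listed ac4C peak along PFKP (horizontal axis, distance of its start from the 5′ end of the gene span in kb) in the 3 control and 3 knockdown libraries (rows), coloured by score percentile within the library. The first peak is above the 90th percentile in all 6 libraries, and peaks past 52 kb are listed in control replicate 3 and in the knockdown libraries.

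One region was listed in every library of 1 group while missing from the other group. It lay in PFKP, chr10:3104724-3105159 on the plus strand, 37.2 kb from the 5′ end of the span, with percentiles of 50.6, 52.7 and 62.7 in the 3 knockdown libraries and no listed peak in control (two-sided Fisher's exact test of presence, p = 0.1, which cannot go lower here). In the series 0.819% of the 41755 regions were listed in all knockdown and no control libraries and 0.34% in all control and no knockdown libraries. The glycolytic genes thus had 1 of 59 in the first class and 0 of 59 in the second. The peak of knockdown replicate 1 ended 37363 bases from the start of the gene and those of replicates 2 and 3 ended 37611 bases from it. Where only peaks over at least 50% of a region were counted, the call was lost. Between the neighbouring listed peaks, control replicates 1 and 2 skipped 3 and 2 numbers and control replicate 3 skipped none, so only in control replicate 3 did the numbering leave no room for an unlisted call.

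With a difference of at least 2 libraries as the criterion, 7 of the 59 regions were unequal, 4 listed more often in knockdown and 3 more often in control. Over all 41755 regions, 5.92% were listed in at least 2 more knockdown than control libraries and 4.07% the other way. In the knockdown libraries more often were the region of PFKP just described, the 15th region of PFKP (61.5 kb; 1 control and 3 knockdown libraries), the last region of PKM (31.8 kb, reaching the 3′ end of the span; 1 and 3) and the fifth region of HK2 (43.0 kb; 0 and 2). In the control libraries more often were the first region of GPI (6.63 kb; 2 control and 0 knockdown libraries), the second region of PFKL (6.63 kb; 3 and 1) and the fourth region of PFKL (12.1 kb; 2 and 0). The last region of PKM stood at a percentile of 37.3 in control replicate 3 and at 64.4, 70.7 and 80.7 in the knockdown libraries. Control replicate 1 skipped 7 numbers around it and control replicate 2 none. Two-sided Fisher's exact tests of these regions other than the called one gave p = 0.4. By the stricter criterion, listed in all libraries of 1 group and none of the other, leaving out control replicate 3 raised the number from 1 to 5. Of these, the 3 in PFKP and PKM were knockdown only and those in GPI and PFKL control only, with 2.02% and 1.22% of all regions in these classes. Leaving out knockdown replicate 1 or 2 gave 2 such regions each, by adding the second region of PFKL (control only) or the fifth region of HK2 (knockdown only). Without knockdown replicate 1, 1.58% of all regions were knockdown only and 1.29% control only, and without knockdown replicate 2 these shares were 1.91% and 0.508%.

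The score percentile asked whether peaks ranked higher or lower within their library after knockdown. For the best-ranked peak of each gene, 0 of the 6 genes listed in all 6 libraries separated the groups, where 4.75% of 4906 genes were higher in all knockdown and 4.61% higher in all control libraries. GPI had the largest difference, at 80.3, 77.6 and 55.1 in control libraries against 61.1, 27.3 and 42.4 after knockdown. Its groups overlapped, since knockdown replicate 1 lay above control replicate 3 (71.0 ± 13.8 against 43.6 ± 16.9, SD, n = 3; two-sided exact permutation test, p = 0.2, adjusted over all genes p = 0.675). These values come from different regions of GPI, since none of its regions was listed in all libraries. HK2 stood at 39.0, 26.9 and 63.9 in control and 92.7, 48.9 and 58.4 after knockdown (p = 0.3 by a two-sided exact permutation test). HK1 ranged from 43.2 to 72.2, PFKL from 65.9 to 85.4, PKM from 84.6 to 94.8 and PFKP from 92.0 to 94.8, each with overlapping groups (two-sided exact permutation tests, p = 0.5, 0.5, 0.5 and 0.9). Without control replicate 3, HK2 was higher in knockdown and GPI higher in control without overlap, as were 10.8% and 22.2% of genes. One gene separated in each of 3 other cases: PKM, higher in control, without control replicate 1, GPI, higher in control, without knockdown replicate 1, and HK1, higher in knockdown, without knockdown replicate 2. Over all genes, 9.44% were higher in control without control replicate 1, 15.7% higher in control without knockdown replicate 1, and 9.54% higher in knockdown without knockdown replicate 2. For PKM the peaks that set this order in control replicate 3 and knockdown replicate 3 both have the shared score of 3100, so only the share of tied peaks in each list orders them.

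Within the 14 regions listed in all 6 libraries, 0 separated the groups, where 6.98% of 9195 such regions were higher in all knockdown and 4.05% higher in all control libraries. The smallest adjusted p over all 9195 regions was 0.669. The mean percentile was higher in knockdown for 12 of the 14 (85.7%), with a median difference of 7.35 percentiles, against 53.7% and 0.703 over all such regions. The median percentile of the 14 was 44.8, 57.1 and 72.0 in control and 78.1, 67.3 and 72.5 in the knockdown libraries, where all shared regions had 67.9, 73.0 and 71.5 against 78.0, 69.2 and 70.4. Control replicate 1 was the lowest for the glycolytic regions. Without it the mean was higher in knockdown for 8 of the 14, with a median difference of 0.0215, against 46.2% and -0.716 over all shared regions. Leaving out any other library gave 9 to 13 of 14 and medians of 1.74 to 16.6, against 45.8% to 58.8% and medians of -1.07 to 2.03 over all. Among the glycolytic regions listed in all remaining libraries, 3 separated without control replicate 3, all higher in knockdown (2 of PFKP and 1 of PKM), and 0 to 2 without any other library. Of all regions, 9.31% to 16.4% were then higher in knockdown and 5.59% to 18.3% higher in control. The 14 regions lie in 5 genes and share their libraries, so they are not independent.

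**Figure D5:**
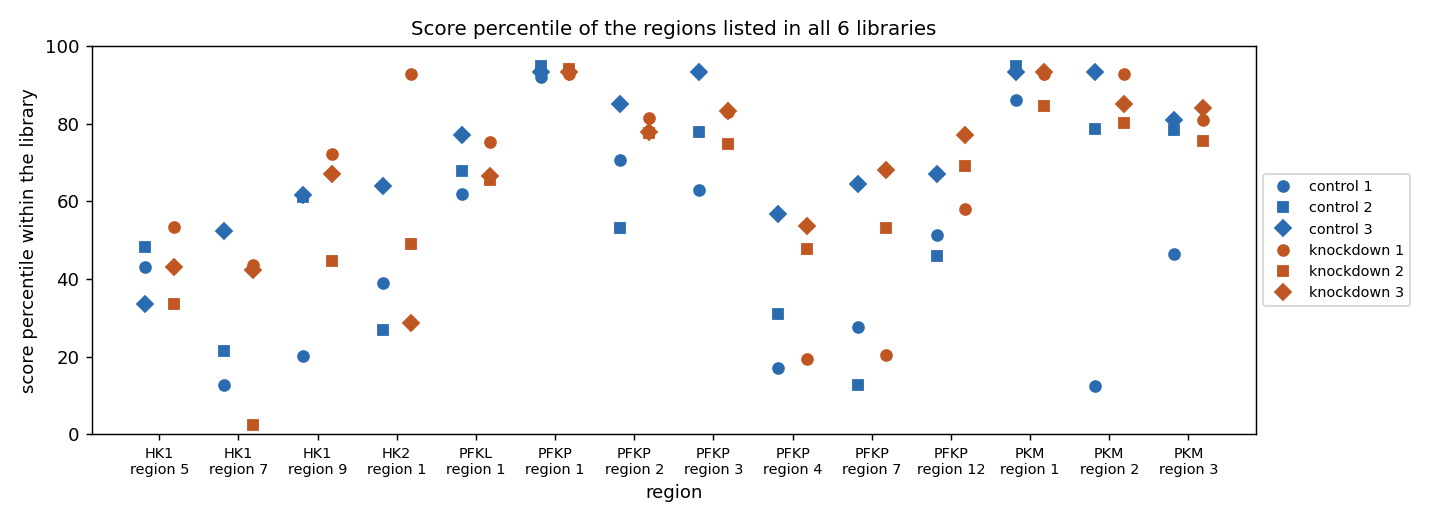
Score percentile within the library (vertical axis, 0 to 100) of each of the 14 glycolytic regions listed in all 6 libraries (horizontal axis, regions numbered from the 5′ end of the gene), blue for the 3 control and orange for the 3 knockdown libraries, 1 symbol per replicate. The groups overlap in every region, and the first regions of PFKP and PKM stay above 84 in all libraries, most of them at the shared score of 3100.

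Of 37 other genes of glycolysis and its branches, 31 had a known strand, and 20 of these held a peak, 9 of them in all 6 libraries. For the other 6, peaks on either strand were counted, and 2 of them, PFKFB2 and SLC16A1, held any. By peak number 0 of the 37 were higher in all knockdown libraries and 0 in all control libraries, but 15 held no peak and could not separate. Over all genes with a peak these shares were 1.58% and 0.697%. The median difference over the 22 with a peak was 0. The most peaks were in PFKFB3, which makes the activator of phosphofructokinase, with 5, 4 and 7 in control and 10, 7 and 9 after knockdown (p = 0.2 by a two-sided exact permutation test). They met at 7 peaks. PDHA1, a subunit of pyruvate dehydrogenase, held 2, 2 and 2 against 5, 2 and 3 (exact p = 0.4), and HKDC1, a hexokinase paralog, 1, 2 and 2 against 2, 3 and 4 (exact p = 0.3). By best percentile, LDHB, a lactate dehydrogenase subunit with 1 peak in each library, was the 1 of the 9 genes listed in all 6 libraries to separate (over all genes, 4.61% were higher in all control libraries), at 83.0, 82.2 and 48.2 in control and 19.9, 26.7 and 2.09 after knockdown (p = 0.1 by a two-sided exact permutation test, 0.675 adjusted over all genes).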

How the data were processed

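The authors deposited 1 peak list per immunoprecipitation library, called per library, limited to mRNA peaks, with a score whose definition, like the caller's version and settings, is not given in the sources used here. The submitters' processing notes name GRCh38. The 6 input libraries were not used here. From the lists, peaks were assigned by midpoint to gene spans of the GRCh38.p14 table, with strand from the RefSeq promoter table, and merged into regions. Peak numbers and percentiles were compared by non-overlap of 3 against 3 libraries and by two-sided exact permutation tests over 20 assignments, with Benjamini-Hochberg adjustment over all genes or regions, and presence by Fisher's exact test. The named items were all 10 genes, regions unequal by at least 2 libraries, the best-ranked shared region per gene, the 3 genes nearest to PFKP, and from the other 37 genes those separated and the 3 with the most peaks. Members and lists were chosen with earlier results of these data known, and the comparison of percentiles per region was added after the lists were seen. Replicate numbers did not pair the libraries (correlations of deviations of 0.0295, 0.00234 and 0.0318). The code was tested on simulated lists over 41755 regions and recovered 200 of 200 planted regions, which meet the criterion by construction. Python 3.11.15, numpy 2.4.6, pandas 2.3.3 and scipy 1.17.1 were used.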

Additional observations from a re-analysis of the deposited data

How the results depend on the processing

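The summed difference between knockdown and control, 7.33 peaks as reported, kept its direction in 12 of 12 alternatives but ranged from 3.67 to 11.7 with 1 library left out, and was 2 among the top-scored 50% of peaks and 4 with lists of equal length. Peak numbers without overlap, 0 genes as reported, became 1 among the 50% of peaks with the highest scores (PKM) and 1 per 10000 listed peaks (HK2), and ranged from 0 to 4 when 1 library was left out. In the first of these the difference of HK2 was -0.333. With the replicate number as a replicate block, 1 gene differed in the same direction in all 3 pairs by peak number (HK2) and 1 by best percentile (GPI). In both the groups overlap, so this is a looser criterion, and its share over all genes is not given here. The 3 pairs allow no p below 0.25. The numbers do not pair the libraries. Best percentiles without overlap, 0 as reported, ranged from 0 to 2 with 1 library left out, and percentiles of shared regions, also 0, from 0 to 3. Regions particular to 1 group, 1 as reported, became 2 among the 50% of peaks with the highest scores. These were the called region of PFKP and the last region of PKM. The share of all regions with that filter is not given here, so the 2 cannot be set against a background. The count was 0 where only peaks over at least 50% of a region counted, 7 with a difference of at least 2 libraries, and 1 to 5 with 1 library left out. The difference of HK1 ranged from -0.333 to 1.83 with 1 library left out. The causes of these changes were not tested. The number of genes and regions without overlap was as reported with lists of equal length, any overlap with the span, either strand and peaks of 1 gene only. With lists of equal length the difference of HK2 was 1.33 against 3.67, and with peaks of 1 gene only that of ALDOA was 0 against 0.333. With 3 libraries against 3, unknown depth, and lists that leave out most called peaks, neither the loss nor the retention of acetylation can be read from a missing peak.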
